A study of Homo sapiens with 6 samples.

Results

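The nuclear-encoded genes of the mitochondrial respiratory chain were described by complex in A549 cells with and without knockdown of STAU1. They were taken by name: protein-coding rows whose symbol begins with NDUF, UQCR, ATP5 or COX followed by a digit from 4 to 8, together with CYC1 and SDHA to SDHD. The rule used no expression value and gave 96 of the 30493 rows of the count table. Of these, 85 were subunits: 37 of complex I, 4 of complex II, 10 of complex III, 16 of complex IV and 18 of complex V. The other members were 8 NDUFAF assembly factors of complex I, the ATP synthase inhibitor ATP5IF1 and 2 read-through loci, NDUFC2-KCTD14 and ATP5MF-PTCD1. NDUFA4 and NDUFA4L2 were counted with complex IV, where the NDUFA4 protein is now placed, although their names come from complex I.

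A549 is an established human lung adenocarcinoma line. There were 3 control libraries, whose labelled genotype is a control plasmid, and 3 libraries labelled STAU1 knockdown, whose titles carry the prefix si. No other treatment or time is labelled, all 6 libraries share the line, and the sources used here do not name the knockdown reagent. Whether replicate libraries are separate cultures is not stated, and p-values here reflect library-to-library spread that could be technical.

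The respiratory chain passes electrons from NADH, through complex I, or from succinate, through complex II, to ubiquinone, then through complex III and cytochrome c to complex IV, which reduces oxygen. Complexes I, III and IV pump protons across the inner mitochondrial membrane, and complex V, the ATP synthase, uses the gradient to make ATP. Complexes I, III, IV and V are built from subunits of both the nuclear and the mitochondrial genome, while complex II is wholly nuclear-encoded and is also an enzyme of the citric acid cycle. The transcription factors NRF1, GABP and YY1 are known to bind the promoters of many nuclear genes of the chain, with the coactivator PGC-1alpha, the product of PPARGC1A. The STAU1 protein, Staufen 1, binds structured RNA and is known to act in the localization, translation and decay of mRNAs.

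Promoter stretches are shown for UQCR10, ATP5MC1, COX8A and COX5B, which fell, and for ATP5MC2 and SDHD, which were not called changed. They were chosen after their values were seen. Sequences are RefSeq (GRCh38.p14), read 5′ to 3′ in the gene's direction, and capitals mark a match to the NRF1 letters GCATGCGC or the GABP/ETS letters CCGGAAG on either strand. For the first 4 genes the 120 bases before the RefSeq start are given, at chr22:29767249-29767368 for UQCR10, chr17:48892667-48892786 for ATP5MC1, chr11:63974500-63974619 for COX8A and chr2:97645942-97646061 for COX5B, all on the plus strand. For ATP5MC2, at chr12:53676369-53676398 on the minus strand, and SDHD, at chr11:112086753-112086782 on the plus strand, 30 bases around the NRF1 letters are given. GENCODE 29 places some starts further upstream, so the last 22, 13 and 22 bases shown for ATP5MC1, COX8A and COX5B lie inside its gene models. All 30 bases shown for ATP5MC2 and for SDHD lie inside an untranslated region annotated there, on whichever strand. The ATP5MC2 stretch is from the second of its listed promoters. The first also held the NRF1 letters, and the third had no match in the 120 bases before its start. No member called higher is shown. Promoters of some members called lower that are not shown also held the NRF1 letters, among them SDHB, NDUFB4, NDUFS6, ATP5ME and ATP5F1C. Matches beyond the stretches are not drawn: COX5B also held the NRF1 letters at -136 from its start and a GABP/ETS match at -5, whose first bases end its stretch in lower case, and SDHD held the GABP/ETS letters at -77.
UQCR10: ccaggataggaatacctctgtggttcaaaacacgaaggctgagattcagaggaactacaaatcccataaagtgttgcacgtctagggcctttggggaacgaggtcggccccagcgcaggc
ATP5MC1: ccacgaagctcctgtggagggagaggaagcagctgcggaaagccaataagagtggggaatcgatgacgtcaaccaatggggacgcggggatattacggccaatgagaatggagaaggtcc
COX8A: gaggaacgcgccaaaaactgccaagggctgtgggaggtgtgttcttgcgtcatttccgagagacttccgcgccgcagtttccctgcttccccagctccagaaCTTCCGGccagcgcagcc
COX5B: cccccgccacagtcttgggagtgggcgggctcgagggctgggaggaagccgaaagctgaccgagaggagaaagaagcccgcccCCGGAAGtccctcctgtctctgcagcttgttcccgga
ATP5MC2: tgtgacgactGCGCATGCtcggaaagggga
SDHD: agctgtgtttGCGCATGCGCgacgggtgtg

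RefSeq promoters, from 250 bases before to 50 after a start, were found for 76 of the 96 members, 94 promoters in all. The NRF1 letters occurred in 17 of these 94 (18.1%), against 3.05% of all 35116 promoters and 4.45% of the 15667 promoters of other tested protein-coding genes. The GABP/ETS letters occurred in 26.6% of member promoters, 10.3% of all and 16.0% of the other tested protein-coding ones. The YY1 letters AAGATGGCG occurred in 12.8%, 1.75% and 3.19%. A GABP/ETS match can end in the AAG that begins a YY1 match and then counts under both, and promoters of 1 gene can share bases. Among the 72 promoters of members called lower, 13.9% held the NRF1 letters, 26.4% the GABP/ETS letters and 11.1% the YY1 letters. The 22 promoters of the remaining members gave 31.8%, 27.3% and 18.2%. UQCR10 and ATP5MC1, which fell most in complexes III and V among genes at moderate or high levels, held none of the 3 motifs in this window. These are counts of letters in a window, not of bound sites.

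Libraries held between 30354219 and 35431441 counts, and 17089 genes had enough counts to be tested. Values below are TMM-scaled counts per 1e6 (CPM). Calls are genes with an adjusted p below 0.05 by the quasi-likelihood test of edgeR, adjusted by Benjamini-Hochberg over all tested genes. Log2 fold changes are knockdown minus control. STAU1 was at 120, 125 and 117 CPM in controls and at 16.0, 15.7 and 14.6 CPM in knockdown libraries (log2 fold change -2.97, SE 0.04, edgeR adjusted p 8.1e-45). Among tested genes 44.2% were called, 22.0% lower and 22.2% higher, with a median log2 fold change of 0.00. The share of calls that were higher was 50.3%, 69.4% when libraries were scaled by their total counts, 63.1% with totals that leave out the mitochondrially encoded genes, and 77.3% and 77.2% with limma on log2 of the deposited FPKM values (fragments scaled by length and depth) plus 1 and plus 0.1. The FPKM scale below is that with 1 added unless stated. In all, 20 alternative settings were run, among them offsets for the length behind the FPKM values or for the principal transcript, and each library left out in turn. Mitochondrially encoded genes took 17.3% to 17.9% of the counts in controls and 15.8% to 16.1% in knockdown libraries. The epithelial keratin genes KRT8 and KRT18 were at 4370 and 4130 CPM in controls and 3330 and 3030 CPM in knockdown libraries. Of 10 marker genes of epithelial and A549 cells 6 fell, both keratins among them, and CDH1, EPCAM and ALDH1A1 rose. Their summed level changed by -11.8%. Of 13 measured marker genes of immune, stromal, endothelial, erythroid and muscle cells, 6 were tested, and LUM, CD14 and CDH5 were called higher. The summed CPM of these 13 was 21.1 to 21.4 in controls and 28.9 to 29.7 in knockdown libraries, with ACTN2 and CKM at 0 in 5 libraries each. The part of either marker list in the results was not tested.

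Most members of the respiratory chain were lower in the knockdown, by small amounts. Of the 92 tested members 71 fell (77.2%) and 3 rose, among them NDUFB5 and ATP5PB, where 22.0% and 22.2% of all tested genes did. The remaining 18 were not called. NDUFA7, COX7A1, COX8C and ATP5MGL had too few counts to be tested. The members' median log2 fold change was -0.16, with quartiles of -0.23 and -0.08, and 15 members were below -0.25. All 3 knockdown libraries lay below all 3 controls for 70 members and above them for 5. Over all tested genes these shares were 25.5% and 25.8%. The summed level of the members was 12470, 12620 and 12390 CPM in controls and 11330, 11120 and 11390 CPM in knockdown libraries, a change of -9.69%. In bulk libraries fewer cells of a type and less RNA per cell cannot be told apart.

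Members are more abundant and shorter than most genes, and calls were more frequent among such genes. Among protein-coding genes of at least 10 CPM, 60.7% were called, 32.2% lower and 28.5% higher, with a median of -0.01. Among the 500 of them that were not members and had a principal transcript under 1000 nt, 69.6% were called, 57.8% lower and 11.8% higher, with a median of -0.13. Of the 88 members with at least 10 CPM, 69 fell (78.4%) and the median was -0.16. The 48 of these with a principal transcript under 1000 nt had 42 lower (87.5%) and 0 higher, with a median of -0.17. The 40 with a longer transcript had 27 lower (67.5%) and 3 higher, with a median of -0.13. Short transcripts outside the respiratory chain thus also leaned lower, with a median 0.13 below 0.

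**Figure D1:**
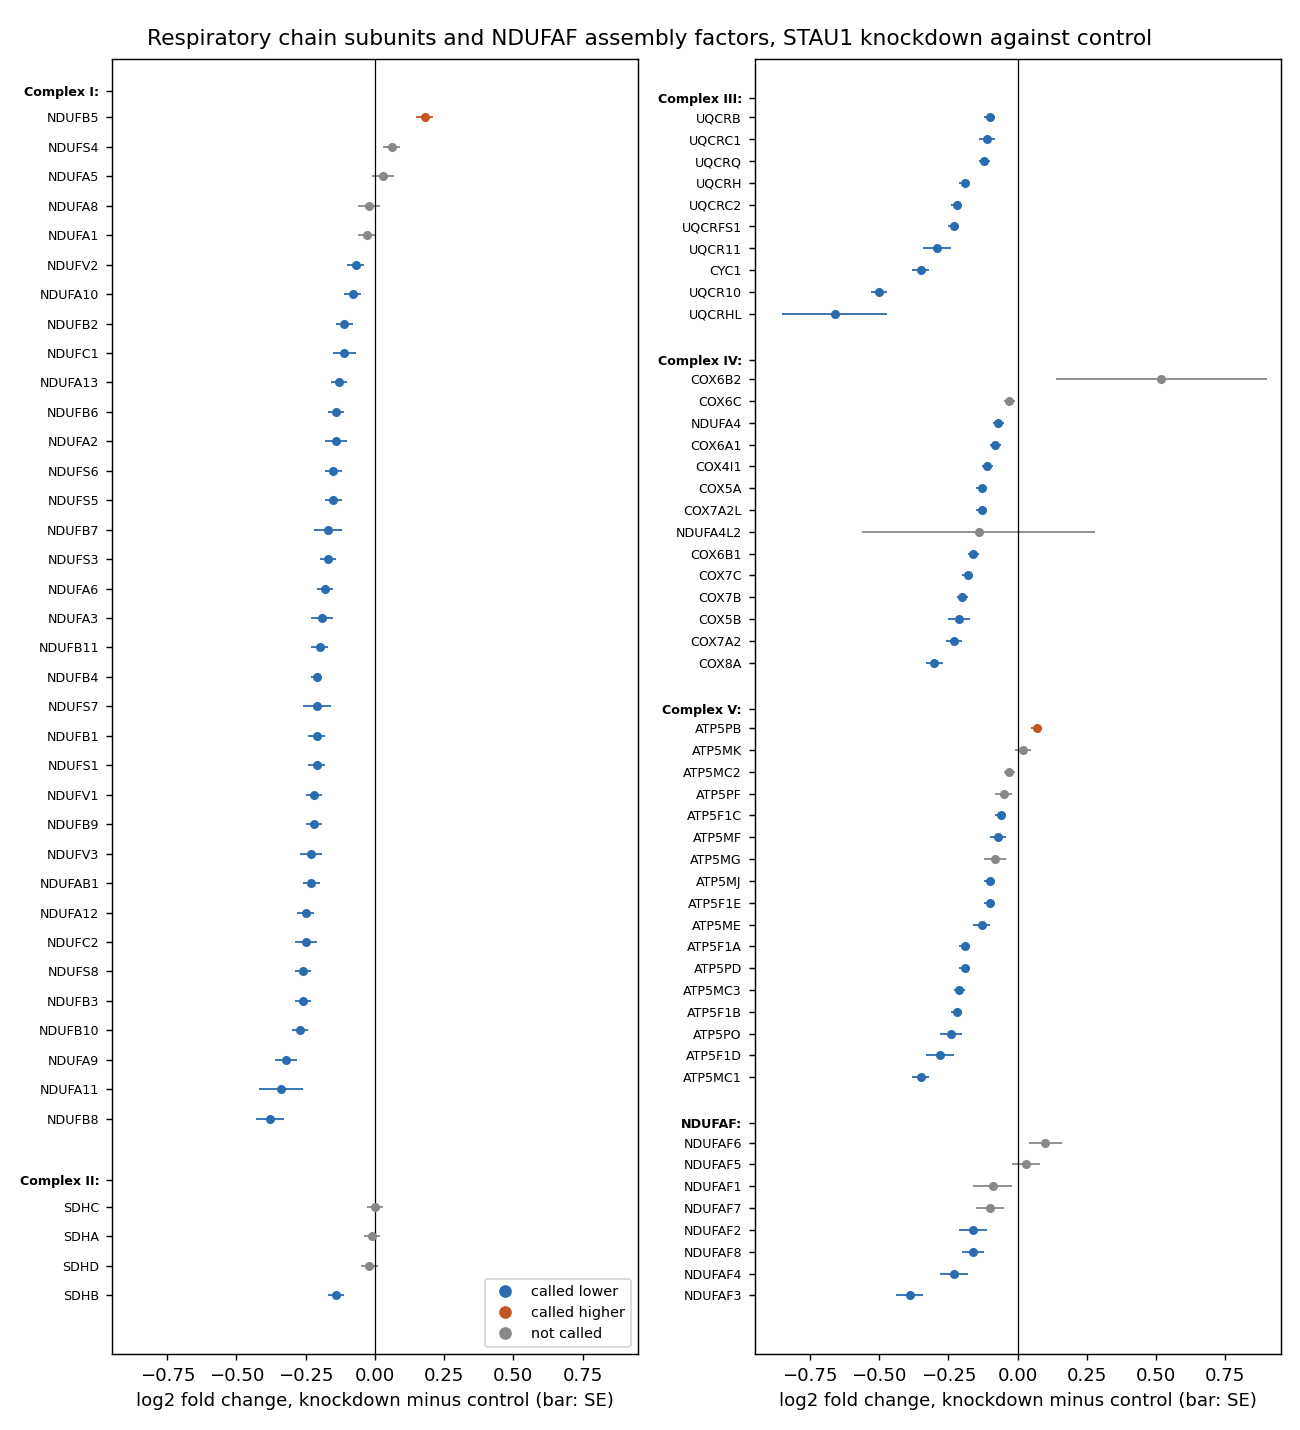
Log2 fold change (knockdown minus control, horizontal axis) of the tested members reported here, by complex, with its standard error as a bar; blue points were called lower, orange higher and grey not called. Complex III lies wholly on the lower side, 3 of the 4 complex II genes sit near 0, and NDUFB5 and ATP5PB are called higher; on the FPKM scale 10 of the blue genes, among them UQCRB, had the other sign.

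Complex I, the NADH dehydrogenase, fell broadly. Of 36 tested subunits 30 fell (83.3%, beside 32.2% of protein-coding genes of at least 10 CPM) and 2 rose. The other 4 were not called, and the median was -0.19. On the FPKM scale 12 were called lower and the median was -0.07. Its summed level went from 3352 ± 28.1 to 3039 ± 49.5 CPM (SD, n = 3 each), a change of -9.34%. Core subunits hold the flavin and the iron-sulfur clusters. Among them NDUFS1, NDUFV1, NDUFS3, NDUFS7 and NDUFS8 were lower, at -0.26 to -0.17, and NDUFV2 at -0.07. The NDUFV2 call was lost without control replicate 1 and without knockdown replicate 1 or 2, and the sign changed under total-count scaling and on the FPKM scale.

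NDUFB5, a gene for an accessory subunit, one of those that surround the core, went against most of complex I. It was at 68.7, 64.7 and 65.3 CPM in controls and 74.1, 74.5 and 75.8 in knockdown libraries (0.18, SE 0.03, edgeR adjusted p 1.6e-05). It was higher in all 3 knockdown libraries and in every alternative setting.

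Among accessory subunits that fell, NDUFB10 (chr16:1959508-1961975), a membrane-arm subunit, had the smallest adjusted p. NDUFB10 was at 138, 135 and 135 CPM in controls and 115, 110 and 113 in knockdown libraries (-0.27, SE 0.03, edgeR adjusted p 3.9e-12). NDUFB4 went from 221, 227 and 219 to 195, 188 and 195 CPM (-0.21, SE 0.02), and NDUFB9 from 153, 155 and 152 to 133, 129 and 133 CPM (-0.22, SE 0.03). Groups were apart in each of these 3 genes. The lowest fold changes were those of NDUFB8 (-0.38, SE 0.05), NDUFA11 (-0.34, SE 0.08), at 9.35 to 10.5 CPM in controls, and NDUFA9 (-0.32, SE 0.04), 3 genes named after their values were seen. NDUFA1, NDUFA5, NDUFA8 and NDUFS4 were not called, with fold changes of -0.03, 0.03, -0.02 and 0.06 and overlapping groups. NDUFA7, at 0.157 to 0.258 CPM and not tested, overlaps RPS28 and AC010323.1 in the annotation, and whether its reads were counted elsewhere was not tested. Of the 12 complex I subunit genes lower in every alternative setting, 11 were accessory and 1, NDUFS8, was core. The tested genes were 29 accessory and 7 core, with 82.8% and 85.7% of them lower in the main setting.

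Of the NDUFAF genes, whose products help assemble complex I, 4 of 8 fell (beside the same 32.2%) and 4 were not called. NDUFAF3 had the largest of these falls, from 32.7, 30.8 and 31.9 to 24.0, 23.6 and 25.1 CPM (-0.39, SE 0.05, edgeR adjusted p 2.1e-09). NDUFAF4 changed by -0.23 (SE 0.05), and NDUFAF2 and NDUFAF8 by -0.16 (SE 0.05 and 0.04). NDUFAF2 and NDUFAF8 lost their calls with total-count scaling and on the FPKM scale, and NDUFAF2 also without control replicate 2. NDUFAF1, NDUFAF5, NDUFAF6 and NDUFAF7 had fold changes between -0.10 and 0.10. The read-through locus NDUFC2-KCTD14 (-0.23, SE 0.04) shares exons with NDUFC2 (-0.25, SE 0.04), so reads of the 2 may be split between them. Of 12 complex I assembly factors outside the NDUFAF names, 8 were lower (66.7%, beside the same 32.2%) and 1 higher. The other 3 were not called, and the median was -0.13. On the FPKM scale 2 were lower (median -0.02) and with total-count scaling 4 (-0.06). The falls were led by DMAC2 (86.8 ± 2.02 to 69.2 ± 2.08 CPM, -0.33, SE 0.03) and FOXRED1 (-0.41, SE 0.06), and the exception was LYRM2 at 0.12 (SE 0.04), a call lost with DESeq2, with either length offset, with the length offset and block, and without knockdown replicate 3.

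Complex II, succinate dehydrogenase, had the median nearest 0. Of its 4 subunits SDHB fell and SDHA, SDHC and SDHD were not called, and the median was -0.02, which turned to 0.06 with total-count scaling and 0.09 on the FPKM scale. Its summed level was 397.2, 407.9 and 394.5 CPM in controls and 390.7, 388.1 and 394.3 in knockdown libraries, a change of -2.23%. The lowest control and the highest knockdown library differ by less than the rounding of the values summed. The flavoprotein gene SDHA was at 129, 129 and 127 CPM in controls and 129, 123 and 129 in knockdown libraries (-0.01, 95% interval -0.06 to 0.04). SDHA pseudogene rows hold counts equal to 10.3% of its own, so its level is uncertain.

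SDHB (chr1:17018722-17054170), which carries the iron-sulfur clusters, was at 67.8, 70.8 and 68.0 CPM in controls and 61.5, 64.0 and 62.3 in knockdown libraries (-0.14, SE 0.03, edgeR adjusted p 7.3e-04). These groups do not overlap, but the call was lost with total-count scaling and on the FPKM scale. The membrane anchor gene SDHC was at 120, 126 and 119 CPM against 121, 120 and 124 (95% interval of the log2 fold change -0.06 to 0.05). The other anchor gene, SDHD, was at 80.4, 82.1 and 80.5 CPM against 79.2, 81.1 and 79.0 (-0.02, interval -0.08 to 0.04). Groups overlap in both anchor genes, and a fall as large as that of the median member, -0.16, lies outside all 3 intervals. SDHD shares its start region with TIMM8B, which lies on the other strand and was not called either (0.04, SE 0.04). Of 4 complex II assembly factors, SDHAF2 was lower (-0.22, SE 0.07), a call lost without knockdown replicate 2 and on other scales, and SDHAF1 was at 0.12 (SE 0.05) without being called.

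**Figure D2:**
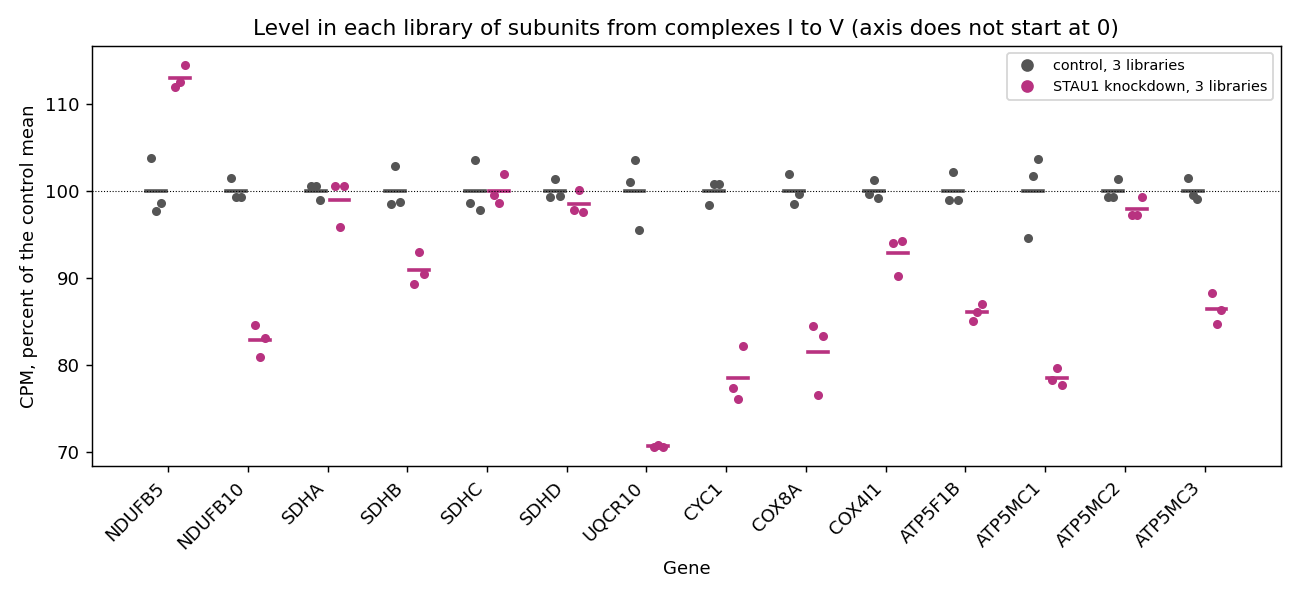
CPM of 14 subunit genes in each library as a percentage of the control mean (vertical axis, not starting at 0), with control libraries in grey, knockdown libraries in magenta and a short line at each group mean. Knockdown libraries of UQCR10 lie together near 65 CPM, against 88.0 to 95.4 CPM in controls, NDUFB5 lies above its controls, and SDHA, SDHC and SDHD overlap theirs; COX4I1 had the other sign on the FPKM scale.

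Complex III, the ubiquinol-cytochrome c reductase, fell in full. All 10 subunits were called lower with no overlap between groups, the median was -0.23 and the range -0.66 to -0.10. Of protein-coding genes of at least 10 CPM 32.2% were lower. Of all tested genes 25.5% had every knockdown library below every control. On the FPKM scale 6 of the 10 were called lower and UQCRB had the other sign. The summed level went from 1633 ± 14.2 to 1417 ± 19.5 CPM, a change of -13.2%. The lowest value of the range was that of UQCRHL, at 1.93, 2.61 and 3.74 CPM in controls and 1.89, 1.50 and 1.85 CPM in knockdown libraries (-0.66, SE 0.19). UQCRHL is an intronless copy of UQCRH, and reads of the 2 may not be separated. Without control replicate 3, its highest library, UQCRHL lost its call.

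UQCR10 (ENSG00000184076, chr22:29767369-29770413), a small subunit that sits beside the redox subunits, fell the most among abundant subunits. It was at 93.1, 95.4 and 88.0 CPM in controls and 65.0, 65.2 and 65.0 in knockdown libraries (-0.50, SE 0.03, edgeR adjusted p 6.6e-18). Its knockdown libraries are nearly equal, and all lie below the lowest control. Both nuclear redox subunits fell. CYC1 (chr8:144095027-144097525), which encodes cytochrome c1, was at 163, 167 and 167 CPM in controls and 128, 126 and 136 in knockdown libraries (-0.35, SE 0.03, edgeR adjusted p 2.1e-15). UQCRFS1, the Rieske iron-sulfur protein gene, went from 329, 332 and 329 to 285, 276 and 285 CPM (-0.23, SE 0.02, edgeR adjusted p 2.3e-12). UQCRC2, a core protein gene, went from 196, 203 and 195 to 172, 169 and 167 CPM (-0.22, SE 0.02, edgeR adjusted p 4.6e-11). Of 6 measured complex III assembly factors 3 were called lower, beside 32.2% of protein-coding genes of at least 10 CPM. The other 3 were not called. BCS1L, which inserts the Rieske protein, changed by -0.26 (SE 0.06) and UQCC2 by -0.14 (SE 0.05), and all 3 calls were lost on the FPKM scale, that of UQCC2 also without control replicate 1 or 2 or knockdown replicate 2.

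Complex IV, cytochrome c oxidase, fell by less. Of 14 tested genes 11 were called lower (78.6%, beside 32.2% of protein-coding genes of at least 10 CPM) and 3 were not called. The median was -0.13. It was -0.02 on the FPKM scale plus 1, where 2 genes were called lower. The summed level went from 3126 ± 45.8 to 2832 ± 49.3 CPM, a change of -9.40%. COX7A2 (-0.23, SE 0.03, edgeR adjusted p 1.6e-10), at 160, 164 and 153 CPM in controls and 137, 134 and 134 in knockdown libraries, was the gene of complex IV that stayed called lower in every alternative setting. COX8A, a small single-helix subunit gene, had the largest fall, from 181, 175 and 177 to 150, 136 and 148 CPM (-0.30, SE 0.03, edgeR adjusted p 9.5e-10), a call lost with either length offset. COX7B went from 251, 257 and 242 to 220, 211 and 222 CPM (-0.20, SE 0.02) and COX7C from 419, 412 and 400 to 370, 362 and 358 CPM (-0.18, SE 0.02). COX4I1, the regulatory subunit IV gene, was at 371, 377 and 369 CPM in controls and 350, 336 and 351 in knockdown libraries (-0.11, SE 0.02), but at 0.0022 on the FPKM scale plus 1. COX6A1 (-0.08, SE 0.02) and NDUFA4 (-0.07, SE 0.02, edgeR adjusted p 0.016) were called lower and had the other sign on the FPKM scale, at 0.03 and 0.04. Both calls were lost without control replicate 2 and without knockdown replicate 2. COX6C was not called (-0.03, SE 0.02).

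Several complex IV subunits have tissue-specific isoforms, and A549 cells used the ubiquitous form in each measured pair. COX6B1 was at 410, 413 and 410 CPM in controls and 372, 363 and 368 in knockdown libraries (-0.16, SE 0.02). The testis form COX6B2 made up 0.0286% of the FPKM of this pair in controls and 0.0463% in knockdown libraries, and was not called (0.52, SE 0.38). NDUFA4L2, a hypoxia-responsive relative of NDUFA4, was at 0.229 to 0.440 CPM in controls and 0.192 to 0.443 in knockdown libraries. COX7A1, the muscle form, and COX8C each had counts in 2 libraries or fewer. Within the COX7A group, COX7A2 held 75.3 ± 0.458% of the FPKM in controls and 74.0 ± 0.208% in knockdown libraries, and by CPM per kilobase 60.0 ± 0.624% and 58.4 ± 0.231%. Nearly all of the rest was COX7A2L, a supercomplex assembly gene, at 152, 154 and 151 CPM against 140, 137 and 139 (-0.13, SE 0.02). COX4I2, COX6A2 and COX7B2 had no row in the count table and could not be analysed.

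Among the assembly factors of complex IV, COX20 and COX18 fell furthest. Of 26 tested, 13 fell and 1 rose, with 12 not called and a median of -0.10. By FPKM 5 of the 26 fell and 5 rose, with a median of 0.01. In the main setting 32.2% of protein-coding genes of at least 10 CPM were lower and 28.5% higher. COX20, a chaperone of the mitochondrially encoded subunit COX2, was at 81.5, 76.3 and 78.8 CPM in controls and 47.5, 49.4 and 50.3 in knockdown libraries (-0.68, SE 0.04, edgeR adjusted p 2.2e-21). COX18, which exports a part of the same subunit across the membrane, was at 23.9, 21.4 and 21.9 CPM against 15.5, 15.1 and 15.3 (-0.55, SE 0.06, edgeR adjusted p 4e-11). Both genes had separate groups and kept their calls in every alternative setting. These falls are larger than that of any complex IV subunit. COX20 overlaps HNRNPU, which lies on the other strand. Whether reads of HNRNPU were counted for COX20 was not tested.

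Complex V, the ATP synthase, was mixed. Of 17 tested genes 12 fell (70.6%, beside 32.2% of protein-coding genes of at least 10 CPM) and 1 rose, with 4 not called. The median was -0.10, which turned to 0.0068 on the FPKM scale plus 1. The summed level went from 3583 ± 35.9 to 3245 ± 12.7 CPM, a change of -9.43%. All 5 genes of F1, the part that includes the catalytic subunits, were called lower, with a median of -0.19. However, ATP5F1C (-0.06) and ATP5F1E (-0.10) had the other sign on the FPKM scale, and ATP5F1C lost its call without control replicate 2. ATP5F1B (ENSG00000110955, chr12:56638175-56646068) is the catalytic beta subunit gene. It was at 886, 915 and 886 CPM in controls and 762, 771 and 779 in knockdown libraries (-0.22, SE 0.02, edgeR adjusted p 1.5e-12). ATP5F1A, the alpha subunit gene, went from 416, 424 and 416 to 362, 370 and 368 CPM (-0.19, SE 0.02, edgeR adjusted p 1.1e-10), a call lost on the FPKM scale. ATP5F1D, the delta subunit gene, was at -0.28 (SE 0.05).

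The 3 genes for the c ring, the rotor of the synthase, encode the same mature peptide behind different import sequences, and they did not move alike. ATP5MC1 (chr17:48892765-48895871) was at 145, 156 and 159 CPM in controls and 120, 122 and 119 in knockdown libraries (-0.35, SE 0.03, edgeR adjusted p 1.1e-14). ATP5MC3 (chr2:175176258-175184607) went from 253, 248 and 247 to 220, 211 and 215 CPM (-0.21, SE 0.02, edgeR adjusted p 7.5e-11). ATP5MC2 (chr12:53632726-53677408) was at 237, 237 and 242 CPM in controls and 232, 232 and 237 in knockdown libraries (-0.03, SE 0.02, edgeR adjusted p 0.29), and its groups overlap. The ratio of ATP5MC1 to ATP5MC2 counts, which needs no scaling between libraries, was 0.613, 0.661 and 0.655 in controls and 0.515, 0.528 and 0.500 in knockdown libraries. Its groups do not overlap, and the exact two-sided permutation p was 0.1, the smallest that 3 against 3 can give. The ratio sets the c-ring gene with the largest fall against the one with the smallest. Separate groups were therefore likely from the values above, and this p adds no support of its own. By FPKM, ATP5MC1 made up 31.9 ± 1.13% of the c-ring transcripts in controls and 28.5 ± 0.586% in knockdown libraries, and ATP5MC2 33.2 ± 0.306% and 37.1 ± 0.458%. With CPM per kilobase of the principal transcript, the ATP5MC2 share was 18.2 ± 0.153% and 20.8 ± 0.306%, higher in the knockdown on both scales. The ATP5MC3 share was 34.9 ± 0.917% and 34.4 ± 0.557% by FPKM and 43.9 ± 1.19% and 44.3 ± 0.651% by CPM per kilobase, shifts within the spread between libraries. Both the shares and the size of their shifts depend on the gene length used.

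In the peripheral stalk, which holds the head still against the rotor, ATP5PO (-0.24, SE 0.04) and ATP5PD (-0.19, SE 0.02) fell, and ATP5PF was not called (-0.05, SE 0.03). The stalk subunit gene ATP5PB was higher, at 147, 152 and 152 CPM in controls and 156, 162 and 156 in knockdown libraries (0.07, SE 0.02, edgeR adjusted p 0.017). This call was lost with DESeq2, with the transcript length offset, without control replicate 1 and without knockdown replicate 2. Of the 5 tested small membrane subunits, ATP5ME, ATP5MF and ATP5MJ were called lower, between -0.13 and -0.07, and ATP5MG (-0.08) and ATP5MK (0.02) were not called. All 3 of those calls rest on the scale: ATP5MF and ATP5MJ had the other sign on the FPKM scale, and ATP5ME with the transcript length offset. The inhibitor gene ATP5IF1 changed by -0.16 (SE 0.04) and ATP5MF-PTCD1 by -0.13 (SE 0.05), the latter with overlapping groups and a call lost without control replicate 2 or 3 or knockdown replicate 2. Of 5 complex V assembly factors 3 fell (60.0%, beside 32.2% of protein-coding genes of at least 10 CPM) and 1 rose. On the FPKM scale 2 fell and 2 rose. TMEM70, which helps assemble the c ring, went from 60.8 to 47.7 CPM (-0.35, SE 0.04), and FMC1 from 9.65 to 14.4 CPM (0.58, SE 0.07).

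Compared as shares of all subunit counts, which need no scaling between libraries, the complexes differed. Complex II made up 3.29%, 3.34% and 3.29% of subunit counts in controls and 3.55%, 3.60% and 3.58% in knockdown libraries. Complex III made up 13.5% in each control and 13.0% in each knockdown library. The groups do not overlap in either. Complexes I, IV and V held 27.7%, 25.8% and 29.6% in controls and 27.8%, 25.9% and 29.7% in knockdown libraries, shifts within the spread between libraries. Relative to the median of all genes in the same setting, complex III had the lowest and complex II the highest median of the 5. Changes of scaling factor alone shift all genes alike and bear little on this order. It also held with other filters, with limma, on the FPKM scale, with the length offset and with each library left out, while with the transcript length offset complexes II and V were both at -0.05. The members as a whole lay between -0.18 and -0.09 in this measure. Complex III ranged from -0.23 to -0.17, complex I from -0.19 to -0.12, complex IV from -0.15 to -0.07, complex V from -0.12 to -0.04 and complex II from -0.05 to 0.04.

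**Figure D3:**
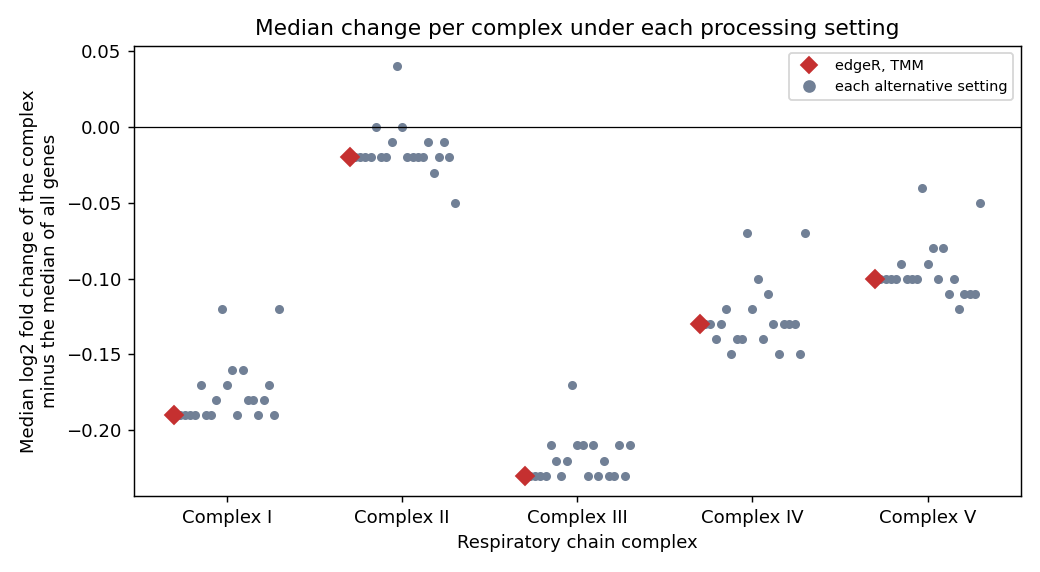
Median log2 fold change of each complex minus the median of all genes (vertical axis), with the main setting as a red diamond and each of the 20 alternative settings as a grey point. Complex III stays lowest, from -0.23 to -0.17, and complex II lies from -0.05 to 0.04, changing sign between settings, level with complex V at -0.05 with the transcript length offset and above the other complexes elsewhere.

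Levels between genes were set side by side only per length, and the 2 measures at hand gave different orders. The FPKM medians cover all genes of a complex, and the CPM per kilobase medians only those tested. In controls the median FPKM was 66.7 for complex IV, 46.0 for complex III, 42.8 for complex V, 23.9 for complex II and 20.5 for complex I. CPM per kilobase of the principal transcript had medians of 248 for complex IV, 184 for complex V, 85.3 for complex III, 81.7 for complex I and 55.0 for complex II. Complex IV was highest by both measures. The length behind the deposited FPKM was a median of 2.77 times the principal transcript, and over 3 times for 42 tested members, so these levels are approximate.

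The mitochondrially encoded partners also fell. Of the 13 mitochondrial mRNAs 12 were called lower (92.3%, beside 22.0% of all tested genes), with a median of -0.27. The count fell to 9 on the FPKM scale (median -0.16) and with the transcript length offset (-0.17), and to 4 with the offset for the FPKM length (-0.14), or 8 when the replicate block was added, and none was called higher in these settings. For complex I, 6 of 7 fell (median -0.27, range -0.50 to -0.22), and MT-ND5 was not called (-0.33, SE 0.22), with control replicate 3 at 5900 CPM against 3750 and 3950 in the other controls. MT-ND4 went from 25600, 25200 and 25200 to 20500, 20400 and 21200 CPM (-0.29, SE 0.02). The cytochrome b mRNA MT-CYB of complex III went from 8990, 8900 and 9000 to 7300, 7210 and 7430 CPM (-0.29, SE 0.02). All 3 mRNAs of complex IV fell (median -0.20) and both of complex V (median -0.25). Mitochondrial counts per nuclear subunit count went from 15.4 ± 0.559 to 14.0 ± 0.387 in complex I, from 5.49 ± 0.0783 to 5.16 ± 0.0346 in complex III and from 4.10 ± 0.0619 to 3.77 ± 0.0225 in complex V, with no overlap between groups. In complex IV the ratio was 24.5 ± 0.711 and 23.9 ± 0.732, and groups overlap. The libraries were made from bead-captured mRNA, and how completely mitochondrial transcripts are captured was not tested.

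**Figure D4:**
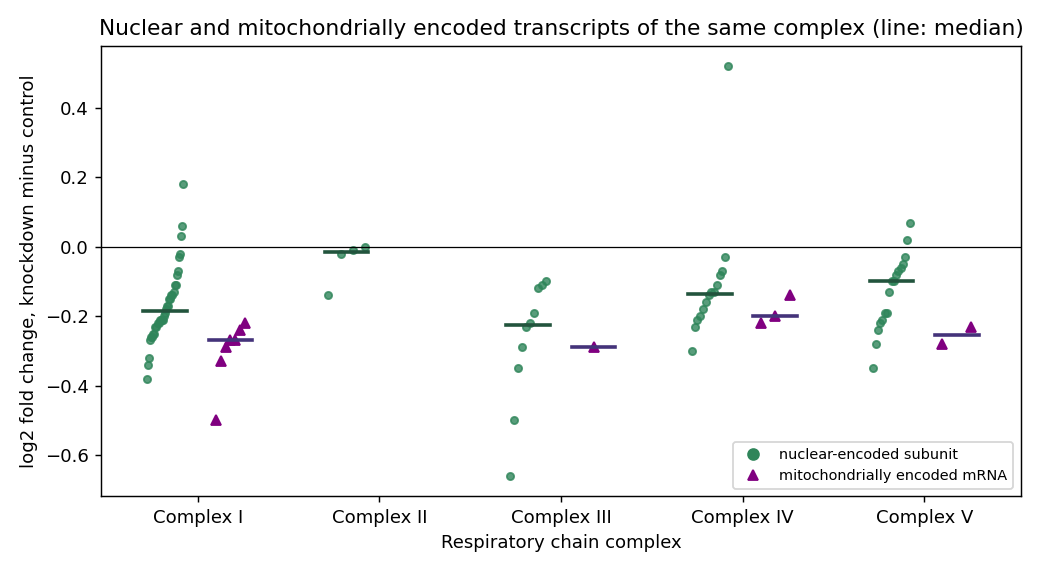
Log2 fold change (knockdown minus control, vertical axis) of the nuclear-encoded subunits reported here, as green circles, and of mitochondrially encoded mRNAs, as purple triangles, by complex, with a line at each median. Mitochondrial medians lie between -0.29 and -0.20, nuclear medians between -0.23 and -0.02, and complex II has no mitochondrial partner; the nuclear medians of complexes II and V had the other sign on the FPKM scale.

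Among the mobile electron carriers calls went both ways. Of 18 tested genes of cytochrome c, ubiquinone synthesis and electron entry, 7 fell (38.9%) and 5 rose, with 6 not called and a median of -0.02. These shares are near the 32.2% lower and 28.5% higher of protein-coding genes of at least 10 CPM. On the FPKM scale 3 fell and 8 rose, with a median of 0.05. CYCS, the cytochrome c gene, was at 383, 391 and 386 CPM in controls and 448, 447 and 439 in knockdown libraries (0.20, SE 0.02, edgeR adjusted p 2.5e-11). Its groups do not overlap, and it stood opposite to CYC1, its electron donor. In complex IV, which it feeds, 11 of 14 tested genes were called lower, and 2 on the FPKM scale. DHODH, which passes electrons from pyrimidine synthesis to ubiquinone, went from 18.5, 18.3 and 18.2 to 12.8, 12.9 and 12.7 CPM (-0.52, SE 0.06, edgeR adjusted p 1.1e-09).

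Of 18 regulators of respiratory chain transcription 7 fell (38.9%, beside the same 32.2%) and 1 rose, with 10 not called and a median of -0.06. On the FPKM scale 1 fell and 4 rose, with a median of 0.04, and with total-count scaling 3 fell and 4 rose. PPARGC1A, the coactivator gene, rose from 8.09, 8.43 and 7.03 to 13.0, 12.3 and 12.0 CPM (0.66, SE 0.08, edgeR adjusted p 1.2e-09). TWNK, the mitochondrial helicase gene, went from 31.0, 34.1 and 32.0 to 26.7, 27.8 and 27.3 CPM (-0.25, SE 0.05), a call lost on the FPKM scale. NRF1 changed by -0.16 (SE 0.07, edgeR adjusted p 0.042), a call lost in 10 of the 20 alternative settings, while GABPA (-0.02, SE 0.06) and YY1 (-0.06, SE 0.03) were not called. Of 22 tested import genes 16 fell (72.7%, beside the same 32.2%) and 1 rose, with a median of -0.16. On the FPKM scale 8 fell and 4 rose (median -0.04), and with total-count scaling 11 and 3 (-0.08). The falls were led by the channel gene TOMM40 (152 to 115 CPM, -0.39, SE 0.03) and the receptor gene TIMM50 (139 to 108 CPM, -0.36, SE 0.03). Of 16 rows for mitochondrial membrane genes 8 fell (beside the same 32.2%) and 1 rose, with 7 not called and a median of -0.09. On the FPKM scale 3 of the 16 fell and 2 rose, with a median of 0.02. PHB2, a prohibitin gene, changed by -0.26 (SE 0.02) and VDAC1, the outer membrane channel gene, by -0.20 (SE 0.02).

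The number of member calls depended on the scaling. With total-count scaling 46 members were called lower and 9 higher, with totals that leave out mitochondrially encoded genes 56 and 6, and with FPKM plus 1 26 and 8. The median of all genes in these settings was 0.0763, 0.0501 and 0.0516. In every alternative setting 25 of the 71 lower calls held: 12 in complex I, 6 in complex III, 5 in complex V, 1 in complex IV, 0 in complex II and 1 among the assembly factors. The 6 of complex III were CYC1, UQCR10, UQCR11, UQCRC2, UQCRFS1 and UQCRH, and the 5 of complex V were ATP5F1B, ATP5F1D, ATP5MC1, ATP5MC3 and ATP5PO. NDUFB5 stayed higher in all of them. In all, 12 called members lost their call when at least 1 library was left out, among them NDUFA10, NDUFB7, NDUFC1 and ATP5MF. Overlapping genes could share reads with members: 58 tested members overlap another annotated gene on either strand, and whether counting used strand is not stated in the sources used here.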

How the data were processed

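The authors deposited a table of whole-number read counts per gene and, for the same libraries, FPKM values (fragments scaled by gene length and depth). HISAT2, DESeq2 and GRCh38 are named, without role or version, per the submitters' processing notes. The sources used here do not give the counting tool, annotation release or strand setting. Columns were matched to libraries by sample title. Per the labels' protocols, directional paired-end libraries of 150 nt reads were made from bead-captured mRNA.

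Counts were kept by filterByExpr (minimum count 10), scaled by TMM and tested with edgeR 4.0.16 (quasi-likelihood, robust; limma 3.58.1, R 4.3.3), with Benjamini-Hochberg adjustment. An SE is the absolute log2 fold change divided by the root of F, and intervals are 1.96 SE. Chromosome positions and transcript lengths are GENCODE 29 (GRCh38), matched for 96 of 96 members without version. No 2 libraries of a group held the same values. Alternatives included DESeq2 1.42.0, limma-voom, limma-trend and loess offsets (span 0.3). The script was tested on simulated data.

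Members, gene lists and naming rule were chosen with earlier results of these data known. The rule named STAU1, the 4 members per complex with the smallest adjusted p, members against their complex's majority, isoform pairs, called NDUFAF genes and the 2 list genes with the smallest adjusted p. Other named genes were chosen after their values were seen. The offset for transcript length, the shortened motifs, CPM per kilobase and the backgrounds of abundant and short genes were added after seeing the data. The ratio of ATP5MC1 to ATP5MC2 counts and its permutation test were not planned beforehand. 1 member is counted among the members but not reported here on its own.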

Additional observations from a re-analysis of the deposited data

How the results depend on the processing

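Total-count scaling gave 2407 genes called lower, and FPKM plus 1 and plus 0.1 gave 1552 and 1554. Members called lower were 46, 26 and 27 in these 3 settings and 71 in the main one. Members called higher were 9 with total counts, 6 with totals without mitochondrially encoded genes, 8 and 8 with FPKM, and 5 with the length offset, with or without the replicate block. The members' median was -0.08, -0.11, -0.05 and -0.05 in the first 4 settings, -0.13 with the length offset (also with the block) and -0.11 with the transcript length offset.

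In complex I, FPKM plus 1 and plus 0.1 gave 12 and 13 lower calls. Its median was -0.11 with total counts, -0.14 without mitochondrial genes and with the transcript length offset, -0.07 and -0.08 with FPKM. In complex II, lower calls were 0 with total counts and with FPKM, and 2 with each length offset. Its median was 0.06, 0.03, 0.09 and 0.09 in the scaling settings, -0.04 with the length offset (also with the block) and -0.06 with the transcript offset. Complex III had 6 lower calls with FPKM and medians of -0.15, -0.17, -0.11 and -0.12. Complex IV had 7 with total counts, 2 with FPKM and 6 with the transcript offset, and medians of -0.06, -0.08, -0.02, -0.03 and -0.09. Complex V had 7 with total counts and 5 with FPKM, and medians of -0.03, -0.05, 0.0068, 0.0069 and, with the transcript offset, -0.06.

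Single genes changed sign with total counts, totals without mitochondrial genes, FPKM plus 1 and FPKM plus 0.1: ATP5MC2 (0.05, 0.02, 0.08, 0.08), SDHA (0.07, 0.04, 0.09, 0.10), SDHC (0.07, 0.05, 0.10, 0.11) and SDHD (0.05, 0.03, 0.08, 0.09). NDUFA4 did so with total counts (0.01) and FPKM (0.04), COX4I1 with FPKM (0.0022, 0.0023), and COX6A1 with FPKM (0.03) and the transcript offset (0.02). SDHC was also at 0.0001 with the 1 CPM filter and 0.02 with the length offset, with or without the block. The FPKM settings differ from the main one in scaling and in unit, and the cause was not tested.

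Leaving out 1 library at a time gave 3370 to 3631 genes called lower, 63 to 71 members lower and 2 to 3 higher, and a members' median of -0.18 to -0.15. By complex, lower calls were 27 to 30 in I, 1 in II, 9 to 10 in III, 9 to 11 in IV and 10 to 12 in V, and medians -0.19 to -0.17, -0.02 to -0.01, -0.23 to -0.22, -0.15 to -0.13 and -0.12 to -0.10. SDHA (0.01), SDHC (0.0027 to 0.02) and NDUFA4L2 (-0.52 to 0.10) changed sign in some of these.

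Replicate numbers are not stated to pair libraries. Deviations of same-numbered libraries correlated at 0.04, 0.018 and 0.096 over 10107 genes, and number 3 alone correlated best with its own number in both directions. With the replicate block 71 members were lower and 3 higher, and no member call changed.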
